A study of Mus musculus with 8 samples.

Results

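Genes that build, load and guard the primary cilium were compared between the germinal zone and the cortical plate of the embryonic mouse neocortex. They were chosen by a rule on gene names, though with earlier results of these data known. The rule took subunits of the intraflagellar transport (IFT) trains and Bardet-Biedl syndrome (BBS) proteins. It also took transition zone proteins of the Meckel syndrome (MKS), tectonic and nephrocystin modules, and 3 Arf-like GTPases. Of 32524 genes and unnamed probes on the array, 44 genes with 59 probes met the rule. Samples came from ICR mice at embryonic day 16 (E16), with no transgene or treatment named in the labels. Dissection by hand had separated the cortical plate (CP), to which young neurons migrate, from the ventricular and subventricular zone (V/SVZ), in which progenitors divide. From each tissue 4 samples were hybridised to 1-colour arrays. Whether animals were pooled, and whether each sample had an animal of its own, is not given in the labels, so the p-values reflect only how much these samples varied, which could be technical variation.

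The primary cilium is a microtubule-based antenna that grows from the mother centriole. IFT-B complexes carry cargo toward its tip with kinesin-2, IFT-A complexes bring trains back with dynein-2, and the BBSome moves membrane proteins, including receptors, along and out of it. The transition zone at its base restricts which proteins enter. Radial glia extend a cilium into the ventricle, cortical neurons carry one too, and Hedgehog signalling runs through the organelle.

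The dissection was checked against marker genes. Of the radial glia markers 8 of 8 were higher in V/SVZ, as were 5 of 5 intermediate progenitor and 6 of 6 dividing cell markers, whereas 8 of 8 cortical neuron markers were higher in CP. Eomes, a transcription factor of intermediate progenitors, was 336-fold higher in V/SVZ, and Camk2b, a kinase subunit of neurons, was 164-fold higher in CP. Between 58.4% and 62.9% of gene probes were well above background on an array, and arrays correlated at 0.992 to 0.997 within a tissue and at 0.880 to 0.897 between tissues. No array stood apart from its group. Since slide 1 carried the V/SVZ arrays and slide 2 the CP arrays, slide and tissue cannot be told apart.

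Each value is a log2 signal relative to the 75th percentile of its array, so 0 is the level of a probe at that percentile. Differences are V/SVZ minus CP on the log2 scale, given ± SE from the limma fit with 4 arrays per tissue unless stated, and a gene was called at a Benjamini-Hochberg adjusted p under 0.05 over all 19232 genes tested. In whole tissue, fewer cells that express a gene and less of its RNA per cell cannot be told apart.

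Most of the cilium genes were higher in the germinal zone, by modest amounts. The test called 39 of 42 members (92.9%), against 79.5% of all genes. V/SVZ had the higher level of 27 (64.3%) and CP of 12 (28.6%), with Bbs1 counted to CP by its brighter probe although its other probe was called toward V/SVZ. Over all genes tested these shares were 35% and 44.6%, and over those with a symbol 38.6% and 43.5%. The members' median difference was 0.42, against -0.09 over all genes. Among the genes described here, differences ran from -0.96 for Bbs5 to 1.77 for B9d2. The median absolute difference of the members tested was 0.50, against 0.56 over all genes. A difference of 2-fold or more was reached by 5 members toward V/SVZ (11.9%, against 13.7% of all genes) and by 0 toward CP (against 16.5%). The 4 V/SVZ and 4 CP arrays did not overlap for 37 members (88.1%), against 75.2% of all genes, and the median SD within a tissue was 0.07. The IFT-A subunits Ift140 and Wdr19 were not tested, since neither passed the background filter on every array of a tissue: Ift140 was well above background on 3 V/SVZ and 2 CP arrays and Wdr19 on 0 of either.

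**Figure D1:**
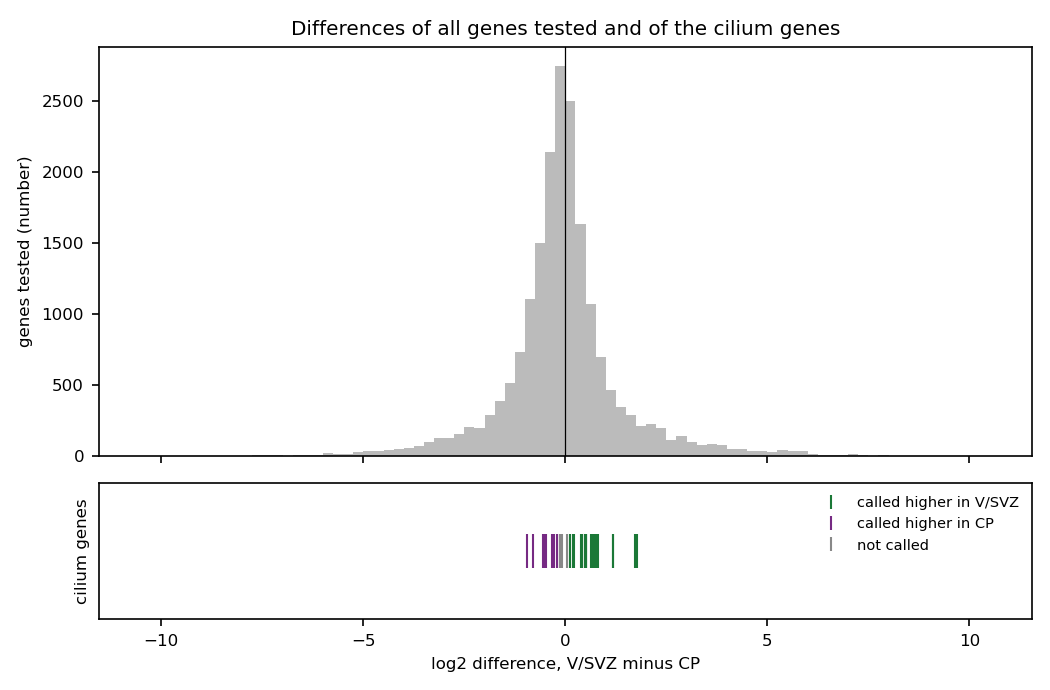
Log2 differences, V/SVZ minus CP, as a histogram over all genes tested (top) and as 1 line per gene for 40 cilium genes, coloured by call (bottom). The 40 cilium genes lie between -0.96 and 1.77, while all genes tested spread far wider.

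**Figure D2:**
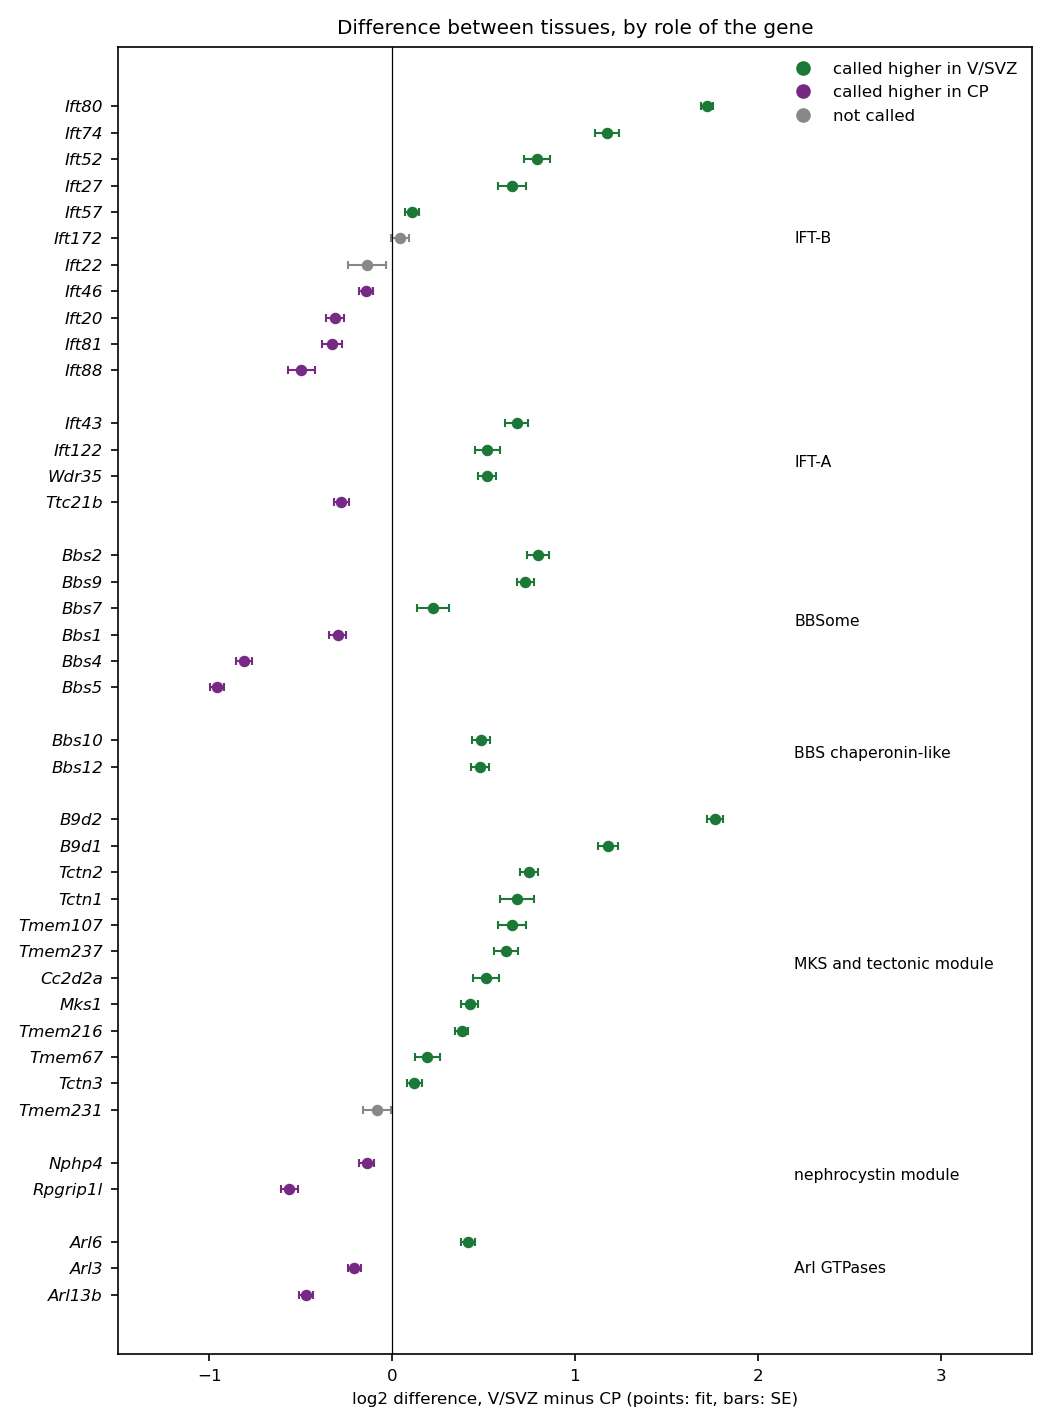
Log2 difference (V/SVZ minus CP) with its SE for 40 cilium genes tested, grouped by role, with 4 arrays per tissue. The MKS and tectonic genes lie almost entirely to the V/SVZ side, while IFT-B, BBSome and Arf-like genes lie on both sides of 0.

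Nearly all genes of the MKS and tectonic part of the transition zone were higher in V/SVZ. They were 11 of the 12 tested, with 0 higher in CP, 1 not called and a median difference of 0.57. All 3 B9-domain genes (B9d1, B9d2 and Mks1) and all 3 tectonics (Tctn1, Tctn2 and Tctn3) were among the 11, as were 4 of the 5 transmembrane protein genes.

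B9d2, a B9-domain protein of the complex, measured 2.97, 3.01, 2.95 and 3.05 on the V/SVZ arrays and 1.29, 1.27, 1.15 and 1.19 on the CP arrays. It was 3.40-fold higher in V/SVZ (1.77 ± 0.04, adjusted p = 6.97e-09). Its partner B9d1 measured 2.36, 2.51, 2.32 and 2.38 in V/SVZ and 1.26, 1.26, 1.19 and 1.12 in CP. The tissues did not overlap for either gene, and B9d1 was 2.27-fold higher in V/SVZ (1.18 ± 0.05, adjusted p = 2.28e-07). Tctn2, a tectonic that anchors the complex at the membrane, measured 0.77, 0.79, 0.91 and 0.86 in V/SVZ and 0.05, 0.02, 0.14 and 0.12 in CP, again without overlap (0.75 ± 0.05, adjusted p = 1.75e-06).

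Tctn1, Tmem107, Tmem237, Cc2d2a, Mks1 and Tmem216 were higher in V/SVZ by 0.38 to 0.68, each without overlap between tissues. Under the normexp background correction the difference of Tctn1 was 0.36 in place of 0.68. Tmem67 (meckelin, a receptor-like transition zone protein) was higher by 0.19 ± 0.07 (adjusted p = 0.0305) and Tctn3 by 0.12 ± 0.04 (adjusted p = 0.0235), and these were the smallest called differences of the group. The call of Tmem67 was lost without V/SVZ 1, 2 or 3 or CP 3 or 4 (adjusted p 0.0595 to 0.0804), and that of Tctn3 without V/SVZ 4 or CP 1, 2 or 4 (0.0508 to 0.0562). Both calls were lost with scaling to spike-in control RNAs (adjusted p = 0.283 for Tmem67 and 0.355 for Tctn3). Leaving out the background filter lost both as well (0.0556 and 0.0598), and normexp lost that of Tctn3 (0.408). Tmem231, another transmembrane member of the complex, measured -3.72, -3.58, -3.45 and -3.57 in V/SVZ and -3.59, -3.54, -3.31 and -3.54 in CP. These ranges overlapped, and the gene was not called (-0.08 ± 0.08, adjusted p = 0.352).

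The promoters of cilium genes often hold an X-box, the palindromic site of the RFX transcription factors that switch on cilium genes. RefSeq promoters of GRCm38.p6 (250 bases before to 50 after a start) were at hand for 38 of the 44 genes, and both strands were searched. A gene was counted if any of its promoters held a match. An X-box was present in 7 of 38 (18.4%), against 474 of 27025 genes (1.75%). The shorter motif GTTGCC, which overlaps many X-boxes, was present in 19 (50%), against 3821 (14.1%). The X-box sites of these 7 genes are listed below. B9d2 and Tmem237 have several starts, not all of them with a site, and distances are from the start of the promoter that holds it. Of the 7, 6 (B9d2, Ift57, Tctn1, Tctn2, Tctn3 and Tmem237) were higher in V/SVZ. The probes of the other gene, Bbs1, were called in opposite directions. Among the members tested that had a promoter, 22 were higher in V/SVZ, 11 were higher in CP and 3 were not called. The differences of Ift57 (0.11) and Tctn3 (0.12) were small, and both calls were lost under normexp (adjusted p = 0.671 and 0.408). Each site is written 5′ to 3′ on the strand that matches, all in capitals as all of it is the site.
B9d2, 17 bases after the start, chr7:25680796-25680809: GTTGCCCCAGCAAC
Tctn1, 37 bases after the start, chr5:122264411-122264424: GTTGCCCGGGCAAC
Tctn2, 62 bases before the start, chr5:124598687-124598700: GTAGCCATGGTAAC
Tctn3, 140 bases before the start, chr19:40612359-40612371: GTTGCCAGGTAAC
Tmem237, 27 bases before the start, chr1:59120110-59120123: GTCGCCATGGCAAC
Ift57, 87 bases before the start, chr16:49699207-49699220: GTCACCACGGCAAC
Ift57, 60 bases before the start, chr16:49699234-49699246: GTTGCCTGGTAAC
Bbs1, 2 bases after the start, chr19:4906613-4906626: GTCGCCTTGGCAAC

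For Ift57, which holds 2 sites, and for Tctn2, the 250 bases before the start are given on the gene strand with the X-boxes in capitals, to show where the sites lie.
Ift57, chr16:49699044-49699293, + strand: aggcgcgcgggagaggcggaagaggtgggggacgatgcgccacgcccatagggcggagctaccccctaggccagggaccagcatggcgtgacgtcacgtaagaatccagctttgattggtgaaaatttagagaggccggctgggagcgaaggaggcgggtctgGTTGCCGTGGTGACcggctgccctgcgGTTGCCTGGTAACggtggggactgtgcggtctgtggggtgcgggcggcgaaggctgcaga
Tctn2, chr5:124598499-124598748, + strand: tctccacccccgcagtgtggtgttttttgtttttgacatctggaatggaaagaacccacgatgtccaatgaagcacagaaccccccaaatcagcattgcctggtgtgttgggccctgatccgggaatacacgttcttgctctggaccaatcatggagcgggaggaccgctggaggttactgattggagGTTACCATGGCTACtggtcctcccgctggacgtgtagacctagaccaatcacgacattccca
Among all 218 tested genes with an X-box, 94 (43.1%) were higher in V/SVZ and 88 (40.4%) in CP, against 39.2% and 42.8% of the 11001 tested genes with a promoter. These matches describe the letters in a window and show no binding.

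Of the nephrocystin part of the transition zone, only Rpgrip1l and Nphp4 are described, and they do not stand for its other genes. Rpgrip1l, which anchors the transition zone to the basal body, measured -2.17, -2.13, -2.08 and -2.26 in V/SVZ and -1.59, -1.58, -1.59 and -1.64 in CP. It was 1.48-fold higher in CP (-0.56 ± 0.05, adjusted p = 7.99e-06), without overlap. Nphp4, a nephrocystin scaffold, differed by -0.14 ± 0.04 (adjusted p = 0.0204), with 3 V/SVZ arrays because 1 spot was marked as an outlier. Its second probe gave -0.64, so the direction was shared while the size was not. The call of Nphp4 was lost under normexp (-0.01, adjusted p = 0.898), and without V/SVZ 1 (adjusted p = 0.0514) or V/SVZ 2 (adjusted p = 0.0674). Scaling to the median (-0.08, adjusted p = 0.354) or to the 75th percentile of probes detected on all arrays (-0.09, adjusted p = 0.0954) lost it too. So did leaving out the background filter (adjusted p = 0.058) and using the replicate number as a block (-0.11, adjusted p = 0.071).

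Of 11 IFT-B subunits tested, 5 were higher in V/SVZ, 4 were higher in CP and 2 were not called, with a median of 0.04. That division is near the one over all genes with a symbol (38.6% and 43.5%). Ift80, a peripheral subunit, measured 0.58, 0.61, 0.61 and 0.67 in V/SVZ and -1.13, -1.09, -1.07 and -1.14 in CP. It was 3.30-fold higher in V/SVZ (1.72 ± 0.03, adjusted p = 2.26e-09), a difference far beyond the spread within either tissue. Ift74, which binds tubulin together with Ift81, measured 0.96, 1.03, 1.11 and 1.14 in V/SVZ and -0.23, -0.18, -0.01 and -0.05 in CP (1.18 ± 0.06, adjusted p = 7.42e-07). Its partner Ift81 was 1.25-fold higher in CP (-0.33 ± 0.06, adjusted p = 0.000858), so the probes for the pair gave opposite directions, each without overlap.

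Ift52, a core subunit, measured 0.77, 0.67, 0.47 and 0.63 in V/SVZ and -0.06, -0.17, -0.17 and -0.23 in CP (0.79 ± 0.07, adjusted p = 1.49e-05). Ift88, a core subunit without which cilia fail to form, measured 0.43, 0.46, 0.56 and 0.31 in V/SVZ and 0.93, 1.08, 0.80 and 0.92 in CP. Both genes were measured without overlap, but in opposite directions, and Ift88 was 1.41-fold higher in CP (-0.50 ± 0.07, adjusted p = 0.000332). Ift27, a Rab-like GTPase that links trains to BBSome exit, was higher in V/SVZ by 0.66 ± 0.08 (adjusted p = 7.67e-05), and Ift20, which also works at the Golgi, was higher in CP (-0.31 ± 0.05, adjusted p = 0.000628).

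Ift57 (0.11 ± 0.04, adjusted p = 0.0261) and Ift46 (-0.14 ± 0.04, adjusted p = 0.00889) passed the test with small differences. The 7 spike-in RNAs used differed between tissues by up to 0.16, and Ift57, Ift46, Nphp4 and Tctn3 lay within that. Ift57 lost its call without V/SVZ 4 or CP 2 or 3 (adjusted p 0.0552 to 0.0633). Scaling to the spike-in RNAs (adjusted p = 0.558), normexp (0.671) and leaving out the background filter (0.0692) lost it too. Ift46 lost its call under scaling to the median (-0.05, adjusted p = 0.552), normexp (-0.07, 0.163) and the mean of its probes (-0.50, 0.124). The second probe of Ift46 gave -0.85, overlapped between tissues and was not called (adjusted p = 0.167). Ift172, the subunit at the train's turnaround, measured -0.18, -0.20 and -0.15 on 3 V/SVZ arrays and -0.29, -0.27, -0.14 and -0.18 in CP, with 1 V/SVZ spot marked as an outlier. The Rab-like Ift22 measured -1.04, -0.89, -0.66 and -0.59 in V/SVZ and -0.71, -0.72, -0.55 and -0.66 in CP. The tissues overlapped for both, and neither Ift172 (0.04 ± 0.05, adjusted p = 0.432) nor Ift22 (-0.14 ± 0.10, adjusted p = 0.248) was called.

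**Figure D3:**
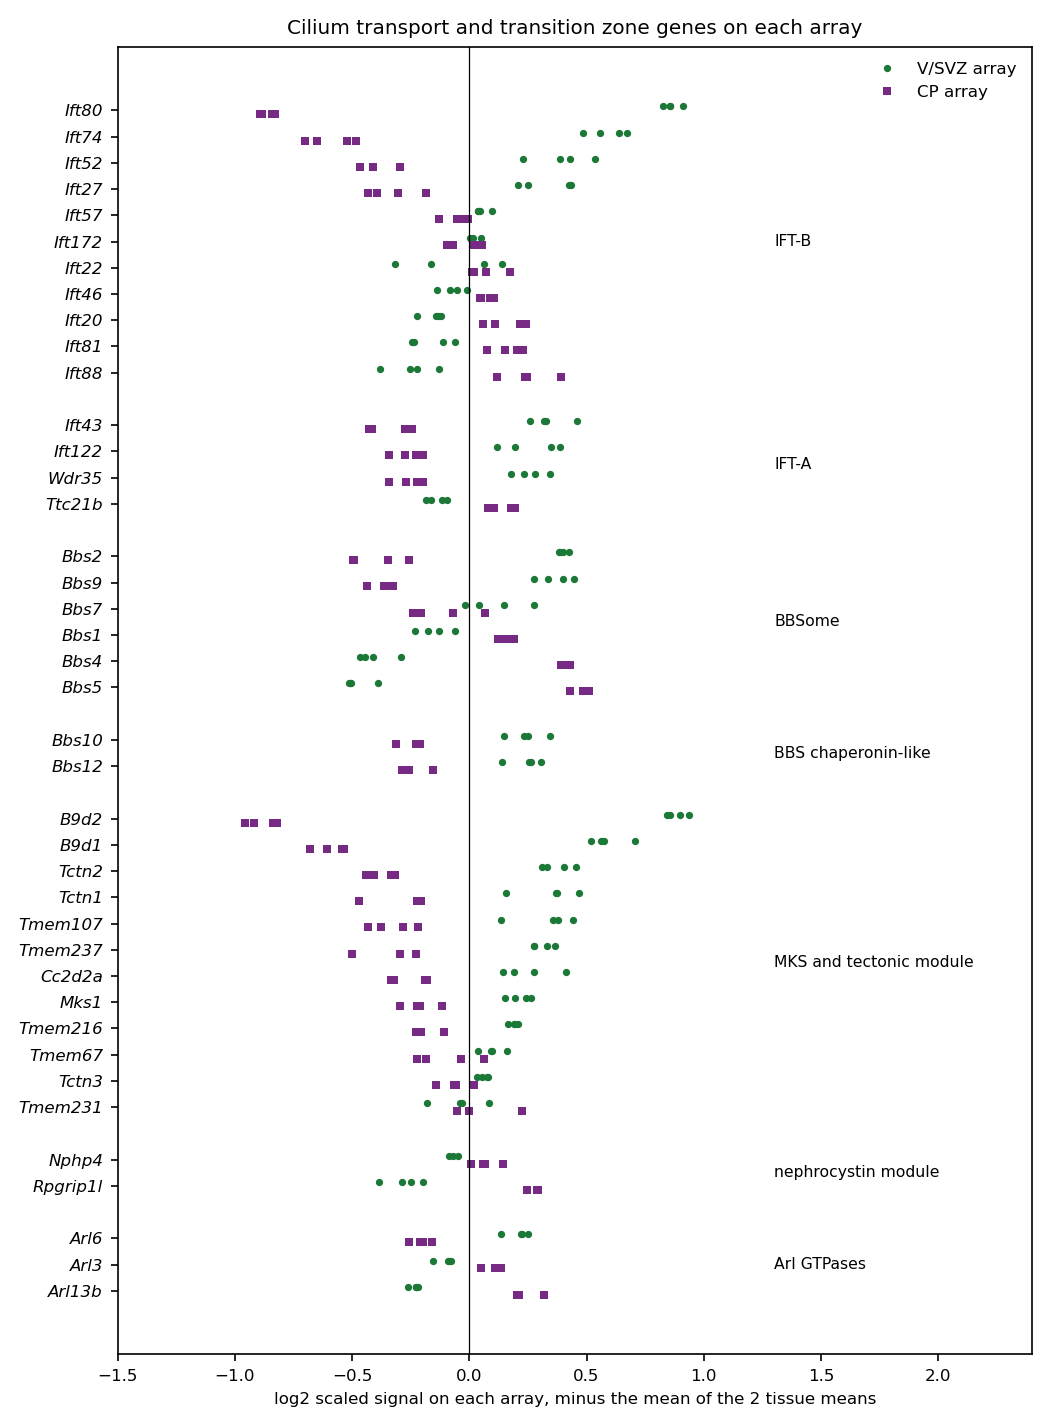
Scaled log2 signal of 40 cilium genes on each of the 4 V/SVZ arrays (circles) and 4 CP arrays (squares), grouped by role and centred for each gene on the mean of its tissue means. Points of a tissue lie close together for most genes, and the tissues overlap for Ift172, Ift22, Bbs7, Tmem67 and Tmem231.

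Of the IFT-A complex, which also brings membrane receptors into the cilium, 4 of 6 subunits were tested, and 3 were higher in V/SVZ. Ift43, a small peripheral subunit, measured 1.82, 1.88, 1.89 and 2.02 in V/SVZ and 1.13, 1.14, 1.32 and 1.28 in CP (0.68 ± 0.06, adjusted p = 1.79e-05). Ift122, a core subunit, measured 1.43, 1.35, 1.62 and 1.58 in V/SVZ and 0.96, 0.89, 1.04 and 1.01 in CP (0.52 ± 0.07, adjusted p = 0.000167). Wdr35 measured 0.39, 0.34, 0.46 and 0.29 in V/SVZ and -0.16, -0.23, -0.09 and -0.12 in CP (0.52 ± 0.05, adjusted p = 2.41e-05). All V/SVZ arrays lay above all CP arrays for the 3 genes. The exception was Ttc21b, a peripheral subunit, at 0.49, 0.51, 0.45 and 0.42 in V/SVZ and 0.80, 0.78, 0.71 and 0.69 in CP. It was 1.21-fold higher in CP (-0.28 ± 0.04, adjusted p = 0.000336), and its second probe gave -0.61.

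The BBSome subunits went both ways, as did all genes tested (35% higher in V/SVZ and 44.6% in CP). Bbs2, Bbs7 and Bbs9, which form the core of the complex, were higher in V/SVZ by 0.22 to 0.80. Bbs4 and Bbs5 were higher in CP, and the probes of Bbs1 disagreed. Bbs5, whose lipid-binding domains contact the membrane, measured -1.82, -1.81, -1.70 and -1.82 in V/SVZ and -0.88, -0.80, -0.82 and -0.82 in CP. It was 1.94-fold higher in CP (-0.96 ± 0.04, adjusted p = 1.47e-07), the largest difference toward CP among the cilium genes tested. Bbs4, which tethers the complex to centriolar satellites, measured 0.50, 0.52, 0.67 and 0.55 in V/SVZ and 1.36, 1.40, 1.36 and 1.37 in CP (-0.81 ± 0.04, adjusted p = 7.18e-07). Bbs2 measured -1.76, -1.78, -1.73 and -1.77 in V/SVZ and -2.51, -2.42, -2.65 and -2.66 in CP (0.80 ± 0.06, adjusted p = 4.45e-06). None of these 3 genes overlapped between tissues, and Bbs9 (0.73 ± 0.05, adjusted p = 2.21e-06) did not either.

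Bbs7 overlapped between tissues and was barely called (0.22 ± 0.09, adjusted p = 0.0448), and its second probe was not (0.13, adjusted p = 0.263). The call of Bbs7 was lost without V/SVZ 1, 2 or 3 or CP 1, 3 or 4 (adjusted p 0.0523 to 0.111). It was lost too with scaling to the spike-in RNAs (adjusted p = 0.227) and under normexp (0.0813). The mean of its probes (0.113) and leaving out the background filter (0.0713) gave no call either. For Bbs1, the subunit that binds Arl6, the probes disagreed. The brighter probe measured 0.87, 0.93, 1.04 and 0.97 in V/SVZ and 1.29, 1.22, 1.23 and 1.26 in CP (-0.30 ± 0.04, adjusted p = 0.000349). The dimmer probe measured -2.34, -2.11, -2.15 and -2.25 in V/SVZ and -2.40, -2.42, -2.38 and -2.47 in CP (0.21 ± 0.06, adjusted p = 0.00933). Bbs1 therefore had no single direction, and the mean of its probes was not called (-0.05, adjusted p = 0.369). It was the only one of the 14 cilium genes with several tested probes whose probes were called in opposite directions, which 8.23% of 3865 such genes over the array were, and 10 of the 14 had all probes called in 1 direction.

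**Figure D4:**
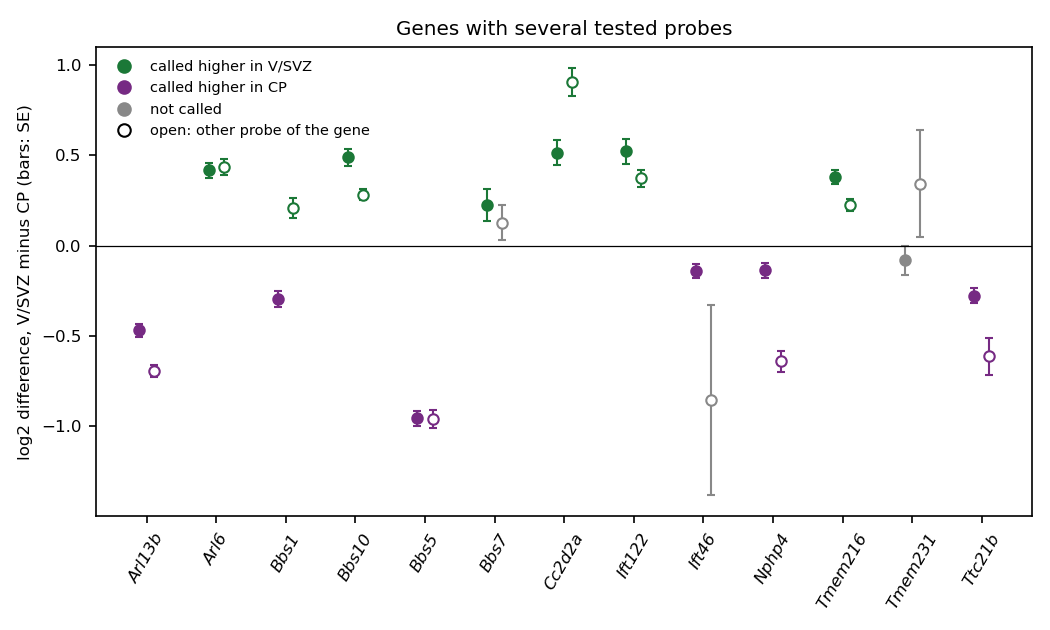
Log2 difference (V/SVZ minus CP) with its SE for each tested probe of 13 cilium genes that have several, with the probe that stands for the gene filled and its other probes open. The probes of Bbs1 lie on opposite sides of 0, at -0.30 and 0.21, while both probes of Bbs5 lie at -0.96.

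Both chaperonin-like genes, which help assemble the BBSome, were higher in V/SVZ, as were 35% of all genes tested. Bbs10 measured -1.92, -1.72, -1.84 and -1.82 in V/SVZ and -2.29, -2.28, -2.29 and -2.38 in CP (0.49 ± 0.05, adjusted p = 3.17e-05). Bbs12 measured -0.52, -0.51, -0.47 and -0.63 in V/SVZ and -1.03, -0.93, -1.06 and -1.03 in CP (0.48 ± 0.05, adjusted p = 3.19e-05). The 2 genes thus differed by nearly the same amount, with no overlap.

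Of the 3 Arf-like GTPases, 1 was higher in V/SVZ and 2 in CP, beside 35% and 44.6% of all genes tested. Arl6, which recruits the BBSome to membranes, measured 0.72, 0.80, 0.81 and 0.83 in V/SVZ and 0.32, 0.37, 0.42 and 0.38 in CP (0.42 ± 0.04, adjusted p = 2.11e-05). Arl13b, a GTPase of the ciliary membrane that activates Arl3, measured -0.66, -0.67, -0.67 and -0.71 in V/SVZ and -0.12, -0.23, -0.23 and -0.24 in CP (-0.47 ± 0.04, adjusted p = 7.08e-06). Arl3, which releases lipidated cargo inside the cilium, measured 1.88, 1.89, 1.82 and 1.90 in V/SVZ and 2.11, 2.03, 2.09 and 2.09 in CP (-0.21 ± 0.03, adjusted p = 0.000731). No pair of ranges overlapped, but Arl3 lost its call under scaling to the median (-0.12, adjusted p = 0.217).

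Of 13 further IFT and BBSome subunits and regulators, 6 were higher in V/SVZ, 5 in CP and 2 were not called (median -0.08), a division likewise near that over all genes with a symbol. Tulp3, the adaptor that loads receptors onto IFT-A, was furthest toward V/SVZ (1.59 ± 0.05, adjusted p = 2e-08), and Ttc30a2, an IFT-B subunit with near-identical relatives that probes may not separate, was furthest toward CP (-1.17 ± 0.17, adjusted p = 0.000276). The BBSome subunit Ttc8 was higher in V/SVZ (1.05 ± 0.09, adjusted p = 1.2e-05) and Bbip1 was higher in CP (-0.70 ± 0.06, adjusted p = 1.83e-05).

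Of 10 motor genes, V/SVZ had the higher level of 4 and CP of 5, and 1 was not called (median -0.27). Over all genes tested the shares were 35% and 44.6%. All 3 subunits of heterotrimeric kinesin-2, which also carries cargo in axons, were higher in CP: Kifap3 by 3.05-fold, Kif3a by 2.29-fold and Kif3b by 1.87-fold. Kifap3 had the largest CP difference of the list (-1.61 ± 0.03, adjusted p = 2.32e-09). The dynein-2 heavy chain Dync2h1 (0.36 ± 0.07, adjusted p = 0.00148) and light intermediate chain Dync2li1 (0.53 ± 0.05, adjusted p = 2.69e-05) were higher in V/SVZ, while the dynein-2 intermediate chain Wdr34 was higher in CP (-0.57 ± 0.10, adjusted p = 0.00122). Kif7, a kinesin of Hedgehog signalling at the cilium tip, was 3.40-fold higher in V/SVZ.

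Among genes that signal through the cilium, some differed by much more. Of 14 ciliary receptor and signalling genes, 12 were tested, of which 8 were called toward V/SVZ and 3 toward CP (median 0.89). Of all genes tested, 35% were called toward V/SVZ and 44.6% toward CP. Gli3, a transcription factor of the Hedgehog pathway, was 242-fold higher in V/SVZ (7.92 ± 0.07, adjusted p = 3.09e-10), and the Hedgehog transducer Smo was 15.7-fold higher. No CP array had Gli2 or Sufu well above background, so both passed the filter only through V/SVZ. Their V/SVZ levels were at least 43.0-fold and 1.88-fold higher. Such a bound divides the V/SVZ mean by a floor, which is the weakest signal counted as well above background on each CP array, or the probe's own signal where that was stronger. Adcy3, the adenylyl cyclase used as a marker of neuronal cilia, was 1.77-fold higher in CP (-0.83 ± 0.05, adjusted p = 9.95e-07).

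Of 7 RFX and FOXJ1 factors, 6 were tested, 3 were higher in V/SVZ, 1 in CP and 2 were not called (median 0.70). Beside these few genes stand shares of 35% and 44.6% over all genes tested. Rfx4 was 11.2-fold higher in V/SVZ, Foxj1, a regulator of motile cilium genes, was 2.65-fold higher, and Rfx2 was at least 2.78-fold higher, with no CP array well above background. Rfx7 was 1.77-fold higher in CP (-0.82 ± 0.05, adjusted p = 8.33e-07), and Rfx3 was not called (-0.01 ± 0.07, adjusted p = 0.922).

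Of 14 other transition zone and inversin compartment genes, 4 were higher in each tissue and 6 were not called (median 0.00). Nek8, a kinase of the inversin compartment, was 4.44-fold higher in V/SVZ, and Anks6, which binds and activates Nek8, was 2.18-fold higher in CP. Of 8 genes for lipidated cargo and its GTPase regulators, 5 were higher in V/SVZ and 1 in CP (median 0.21), led by Unc119b, a carrier of myristoylated cargo (2.59-fold), with Arl2 toward CP (1.12-fold). Of 23 basal body and assembly genes, 22 were tested, 11 were higher in V/SVZ and 7 in CP (median 0.11). Each of these lists stands beside shares of 35% higher in V/SVZ and 44.6% in CP over all genes tested. Kif24, a kinesin that restrains cilium growth, was 6.13-fold higher in V/SVZ, and the kinase Cdk20 was 2.23-fold higher in CP.

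**Figure D5:**
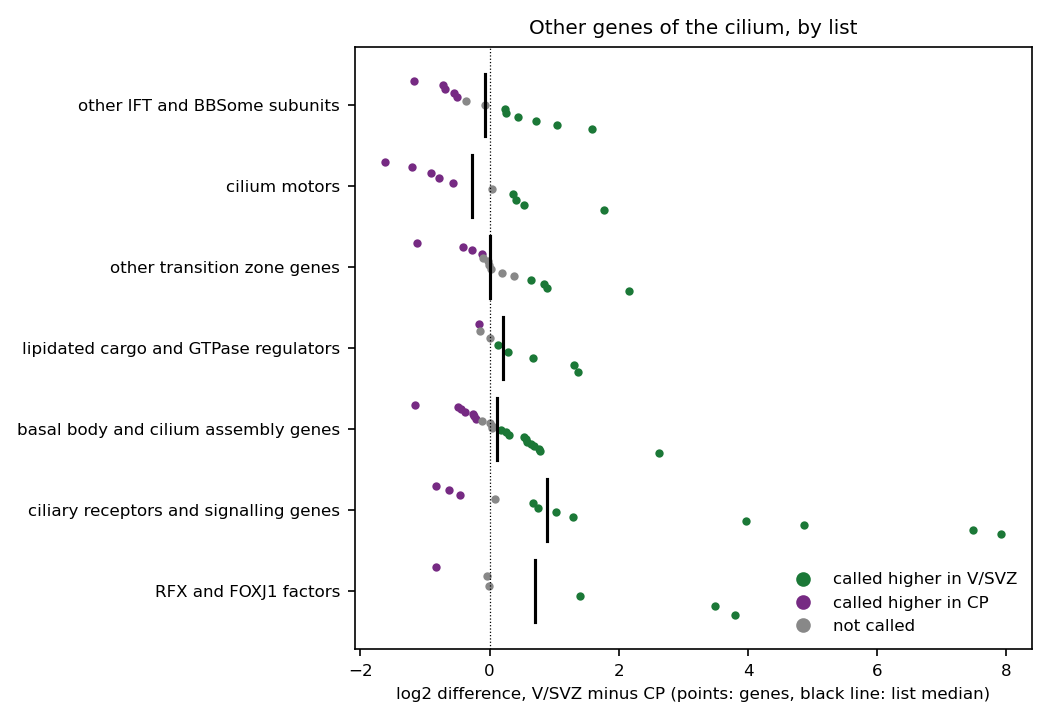
Log2 differences (V/SVZ minus CP) of the tested genes in 7 further lists of cilium genes, with 1 point per gene, coloured by its call, and a black line at each list's median. Genes not well above background in CP are drawn at their fitted value. Receptors and signalling genes reach 7.92 (Gli3), and the cilium motors run from -1.61 (Kifap3) to 1.77 (Kif7).

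Markers of cells with motile cilia and of other cell types were measured beside these lists. Of 26 genes of motile cilia and multiciliated cells, 16 were tested, 6 were higher in V/SVZ and 7 in CP, and 6 were not well above background on any array. The division of the tested genes is near that over all genes tested (35% in V/SVZ and 44.6% in CP). Lrrc6, an assembly factor of ciliary dynein arms, was higher in V/SVZ by at least 3.33-fold, and Spag6l, an axoneme protein, was 19.4-fold higher in CP. Spag6l was well above background on only 1 V/SVZ array and passed the filter through CP. Its fold thus rests on V/SVZ signals near background. The summed level of the list, in units of the array's 75th percentile, was 9.38 to 13.1 in V/SVZ and 16.8 to 19.2 in CP. Its brightest gene, Mcidas, a regulator of multiciliated cells, made up most of that sum, which without it was 3.39 to 4.35 in V/SVZ and 4.34 to 6.08 in CP. Ependymal markers summed to 0.46 to 0.531 in V/SVZ and 0.611 to 0.719 in CP, with 4 of 7 tested, 3 higher in V/SVZ, 1 (Mia, 4.12-fold) in CP, and Ccdc153 not well above background on any array. Without Mia, the brightest of them, the order of the ependymal sums turned, to 0.348 to 0.424 in V/SVZ and 0.156 to 0.234 in CP. Choroid plexus markers summed to 0.151 to 0.223 in V/SVZ and 0.163 to 0.211 in CP, with 3 of 7 tested, of which 1 (Aqp1, 2.17-fold) was higher in V/SVZ and 1 in CP, and on no array was the defining marker Ttr well above background.

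Microglial markers were higher in V/SVZ in 6 of 6 (P2ry12, 5.22-fold), with sums of 7.5 to 10.3 in V/SVZ and 2.14 to 2.57 in CP. Endothelial markers were higher in V/SVZ in 2 of 6 (Kdr, 1.25-fold) with sums of 6.85 to 7.59 and 5.76 to 6.4, and interneuron markers were higher in CP in 4 of 6 (Sst, 3.82-fold) and in V/SVZ in 2, with sums of 6.61 to 7.57 in V/SVZ and 9.65 to 10.4 in CP. Red blood cell genes were higher in V/SVZ in 3 of the 4 tested (Hba-a1, 1.40-fold), with sums of 141 to 180 and 106 to 119. Radial glia markers summed to 299 to 311 in V/SVZ and 11.2 to 12.8 in CP (Aldoc, 160-fold). Dividing cell markers summed to 71.8 to 80.3 and 9.25 to 9.41 (Ccnb1, 57.4-fold), and cortical neuron markers to 39.8 to 42.4 and 171 to 184. The part of any of these cells in the differences of the cilium genes was not tested.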

How the data were processed

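Per the labels' protocols, 100 ng of total RNA per sample was amplified and labelled with Cy3 for 1-colour Agilent arrays. Feature Extraction 10.7.1.1, per the file headers, made the deposited intensity values (processed signal, background-subtracted) for 39429 gene probes, annotated to mm9. A log2 table from the authors, centred per row, was deposited as well. Its columns correlated at 0.994 to 0.995 with the array of equal number from the opposite tissue. It served only as an alternative, after its V/SVZ and CP columns of equal number were exchanged, and its scaling between arrays is unknown. It left 0 columns of per-sample values unmapped.

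Spots of a probe were averaged as log2 after leaving out control and outlier spots (142 to 258 per array), then scaled to the 75th percentile of the array. No gene spot was saturated (0). Tests were limited to the 23860 probes well above background on all 4 arrays of a tissue and measured on at least 3 arrays of each, and the brightest tested probe stood for the gene. Accessions were named through a RefSeq table of GRCm38.p6, which matched 26761 probes and left 12668 unnamed. Differences were fitted with limma 3.58.1 (R 4.3.3; lmFit, eBayes) over all 19232 genes with Benjamini-Hochberg adjustment. The procedure was tested on simulated data.

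The cilium genes, the lists, and the tests were chosen with earlier results of these data known. Array values are given, in each role, for the 3 called genes that differed most in either direction, the called gene furthest against the majority, genes not called and genes with probes called in opposite directions. In each further cilium list the called gene with the largest difference in each direction is named, and in each marker list the called gene that differed most. Other named genes were chosen after their values were seen. Some genes that the rules would name are counted but not reported here. Alternatives changed the scaling, the background correction, the filter or the probe choice, added a replicate block or array weights, changed the variance model, used the deposited table, or left out each array in turn. The number of arrays limits the precision.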

Additional observations from a re-analysis of the deposited data

Results flagged for a closer look

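In 82 groups of 4 arrays, 1 array stood far from the other 3 in 5 cases, by a test that flags about 1 group in 20 by chance. Arl13b was higher in CP 1 (-0.12) than in the other CP arrays (-0.24 to -0.23). Bbs10 was lower in CP 4 (-2.38; others -2.29 to -2.28). Bbs5 was higher in V/SVZ 3 (-1.70; others -1.82 to -1.81). Ift57 was higher in V/SVZ 4 (1.82; others 1.76 to 1.77), and Rpgrip1l was lower in CP 4 (-1.64; others -1.59 to -1.58). The cause of these gaps was not tested.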

How the results depend on the processing

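Of the 39 called cilium genes, 31 kept their call in all of the alternatives they were part of, 8 lost it in at least 1 (Arl3, Bbs1, Bbs7, Ift46, Ift57, Nphp4, Tctn3 and Tmem67), and 0 turned direction. Ift22 was called with array weights (-0.20, adjusted p = 0.048). Leaving out 1 array gave 24 to 26 genes higher in V/SVZ, 11 to 12 higher in CP and a median difference of 0.40 to 0.44. Some changes of processing moved these counts further. The V/SVZ count of 27 fell to 23 with spike-in scaling or no background filter, and to 24 under normexp. The CP count of 12 fell to 9 with scaling to the median and to 10 under normexp or the probe mean. Array weights raised it to 13. Tctn3 and Tmem67, of the MKS and tectonic group, were among the calls lost with spike-in scaling. The median difference of 0.42 became 0.51 with scaling to the median, 0.35 with scaling to the spike-in RNAs and 0.34 over all tested probes singly. With the motif GTTGCC in place of the X-box, the share of promoters was 50%. Read with its columns as named, an alternative added after seeing the data, the deposited table gave 11 genes higher in V/SVZ, 25 higher in CP and a median of -0.42, the reverse of the scanner files.

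Numbers are shared by the tissues, and whether they pair the samples is not known. Same-numbered samples correlated in their deviations at 0.339, 0.308, 0.097 and 0.204, and the other pairs at -0.392 to 0.207. The main fit did not pair them because 1 pair, at 0.097, fell short of the level asked of every pair. With the replicate number as a block, 27 genes were higher in V/SVZ, 11 in CP and the median was 0.42, with the call of Nphp4 lost (-0.11, adjusted p = 0.071).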
